A study of Mus musculus with 6 samples.

Results

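Integrin, cadherin and laminin genes encode the proteins by which cells hold the surrounding matrix and each other. They were followed here in B16 cells, a mouse melanoma line, under chronic hypoxia, cyclic hypoxia and normoxia. Members were the genes of the array whose symbol is Itga or Itgb with a number or letter, Cdh with a number, or Lama, Lamb or Lamc with a number. Binding proteins such as Itgb3bp were left out. There were 49 such genes among the 12393 genes named on the array, with 80 probe sets, and the probe set with the highest mean signal stood for each gene. The members comprised 14 integrin alpha genes, 8 integrin beta genes, 17 cadherin genes and 10 laminin genes.

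The 6 arrays came from 6 groups of B16 cells, 1 array each, all in serum-free medium from 2 h before the exposure. The groups were chronic hypoxia (3 h below 1% oxygen), chronic hypoxia with a last 1 h of reoxygenation, cyclic hypoxia (3 periods of 1 h, with breaks of 30 min in oxygen), cyclic hypoxia with a last 1 h of reoxygenation, normoxia for 3 h, and normoxia for 3 h plus 1 h. The labels name no genetic alteration beyond the line itself, do not give the number of cultures, and name no normoxia control timed to the breaks of the cyclic regime. The series title ties hypoxia in these cells to metastatic potential. There are no replicates, so values of single arrays carry no SD, and the difference between both normoxia arrays is given as the measure of how far arrays differ without hypoxia.

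As background, an integrin is a pair of 1 alpha and 1 beta chain that binds matrix outside the cell and, through talin and kindlin, the actin cytoskeleton inside it. Itgb1 pairs with many alpha chains, among them those of Itga3, Itga5, Itga6 and Itga9, while the Itgav chain also pairs with those of Itgb3, Itgb5 and Itgb6. Laminins are trimers of an alpha, a beta and a gamma chain that build basement membranes and are bound by the Itga3 and Itga6 integrins. Classical cadherins join neighbouring cells and hold catenins at their tails. Melanocytes bind keratinocytes through E-cadherin (Cdh1), and many melanomas carry N-cadherin (Cdh2) in its place.

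Signals below are deposited intensities in arbitrary units on a linear scale, scaled by the authors. A fold change is a log2 difference of such signals after values under a floor of 2.09 units were set to it. Levels of different genes come from different probe sets and cannot be ranked against each other as amounts of RNA. The array measures RNA per amount of total RNA, so a change in a gene's RNA per cell and a change in the share of cells that carry it cannot be told apart. The hypoxic exposure showed in the arrays. In limma's additive fit over 13677 probe sets, the hypoxia-responsive genes Hk2 and Bnip3 rose by 2.10 (SE 0.167, adjusted p = 0.0189) and 1.94 (SE 0.190, adjusted p = 0.0451) in mean hypoxia, while Slc2a1, the third gene checked, stood at 1.56 (SE 0.188, adjusted p = 0.0589). When all probe sets entered, or when the trend was dropped, mean hypoxia had 0 calls. Of 8 melanocyte genes on the array, 6 had a mean signal of at least 8, among them Dct (6064) and Tyrp1 (4793). Ednrb (6.21) and Kit (5.81) were under it. Markers of other cells with a mean signal of at least 8 were Krt5 (10.04) of 5 keratinocyte genes, 0 of 6 fibroblast genes, Vwf (19.6) of 5 endothelial genes, and Cd68 (34.6) and Lyz2 (8.97) of 5 leukocyte genes. The leukocyte antigen Ptprc had a mean signal of 2.08.

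Promoter windows of 3 expressed members are shown because hypoxia-inducible factor (HIF) binds the core letters ACGTG or GCGTG. They are the 250 bases before a transcript start in RefSeq (GRCm38.p6), and capitals mark either motif on either strand. Itgav is the brightest member, and Itgb5 and Lamb1 are expressed members whose window held a match. They were chosen after the matches were seen.

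Itgav, chr2:83724147-83724396, plus strand: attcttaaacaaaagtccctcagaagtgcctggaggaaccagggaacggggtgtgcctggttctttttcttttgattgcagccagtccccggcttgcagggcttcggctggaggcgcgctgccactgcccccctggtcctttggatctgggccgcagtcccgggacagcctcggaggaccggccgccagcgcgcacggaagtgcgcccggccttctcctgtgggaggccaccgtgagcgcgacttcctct
Itgb5, chr16:33829415-33829664, plus strand: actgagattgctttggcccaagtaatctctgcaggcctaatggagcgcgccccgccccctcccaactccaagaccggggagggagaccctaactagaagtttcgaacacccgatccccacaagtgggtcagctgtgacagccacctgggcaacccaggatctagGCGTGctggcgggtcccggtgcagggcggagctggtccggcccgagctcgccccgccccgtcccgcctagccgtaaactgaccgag
Lamb1, chr12:31265043-31265292, plus strand: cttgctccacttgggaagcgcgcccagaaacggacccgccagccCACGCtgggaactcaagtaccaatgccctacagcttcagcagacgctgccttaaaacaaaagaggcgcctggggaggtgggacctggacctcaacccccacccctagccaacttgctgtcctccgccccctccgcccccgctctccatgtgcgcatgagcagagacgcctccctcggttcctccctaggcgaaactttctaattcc

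The Itgav window held 0 matches, and its end lies 2094 bases inside the annotated span of the gene. The window of Itgb5 held 1 match, GCGTG, and that of Lamb1 held 1 match, CACGC, which is GCGTG on the opposite strand. RefSeq windows were found for 10 of the 16 expressed members, and 3 of these genes held a match. The third was Itga9, with 3 matches in a window that lies 104983 bases inside the annotated span. Of all 32851 windows of this length, 38.6% held at least 1 of the motifs, against 27.3% of the 11 windows of expressed members. Such a match is a string of letters and not a measured binding site.

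Most of the adhesion genes had little or no signal. Only 16 of the 49 members had a mean signal of at least 8 and are called expressed here, 32.7% of them, against 62.9% of all genes on the array. Of the 16 expressed members, 8 had a mean of at least 50 and 8 lay between. They comprised 7 of 14 integrin alpha genes, 2 of 8 integrin beta genes, 2 of 17 cadherin genes and 5 of 10 laminin genes. The other 33 members had mean signals of 0.283 to 6.96. Just inside the limit were Itgae (8.02) and Itga3 (8.58), and just outside it was Itga2 (6.96), so these 3 genes are separated by the limit more than by their signals.

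**Figure D1:**
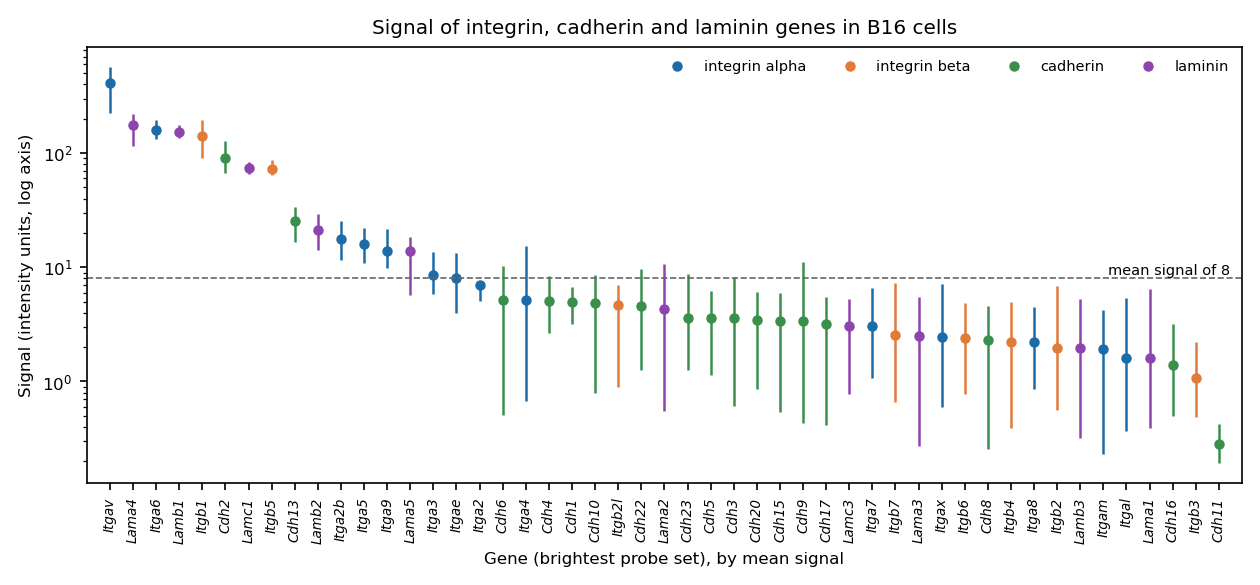
Signal of the 49 members in intensity units on a log axis, ordered by mean signal. Points are means over 6 arrays and lines run from the lowest to the highest array. The 8 brightest members, led by Itgav at 415, stand clear of the rest, and 33 members lie under the dashed line at 8.

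Among the integrin genes not expressed were Itga4, which with Itgb1 binds fibronectin and Vcam1, Itga7 and Itga8, partners of Itgb1, and Itga2, of a collagen receptor. The epithelial chains Itgb4 and Itgb6 and the leukocyte chains Itgal, Itgam, Itgax, Itgb2 and Itgb7 were under the limit as well, and so was Itgb2l. Itgb3, the vitronectin receptor chain that pairs with Itgav, had a mean of 1.08 at its single probe set, with 1.21 and 2.21 units after chronic hypoxia without and with reoxygenation, 0.488 and 0.861 after cyclic hypoxia, and 1.15 and 0.565 in the normoxia arrays. Itga4 had 15.5 and 6.67 units after chronic hypoxia without and with reoxygenation, 0.704 and 0.676 after cyclic hypoxia, and 2.69 and 4.50 in normoxia. Only 1 of its arrays passed 8 units.

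Cdh1 had 5.02 and 5.30 units after chronic hypoxia without and with reoxygenation, 3.17 and 6.67 after cyclic hypoxia, and 3.88 and 5.64 in normoxia. These 6 values stayed under the limit of 8, in hypoxia as in normoxia. The other cadherins under it were Cdh3 (P-cadherin), Cdh4, Cdh5 (VE-cadherin of endothelium), Cdh6, Cdh8, Cdh9, Cdh10, Cdh11, Cdh15, Cdh16, Cdh17, Cdh20, Cdh22 and Cdh23. The laminin chains under it were Lama1, Lama2, Lama3, Lamb3 and Lamc3. Lama3 and Lamb3 belong to the laminin of epithelial basement membranes.

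The expressed set therefore named Itgav, Itga6, Itga5, Itga9 and Itga3 as alpha genes with Itgb1 and Itgb5 as beta genes, Cdh2 and Cdh13 as cadherins, and Lama4, Lama5, Lamb1, Lamb2 and Lamc1 as laminin chains. Itga2b, which is known from platelets, and Itgae, known from lymphocytes, also passed the limit, at means of 17.9 and 8.02.

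Few of the expressed members differed from normoxia by 2-fold or more. After chronic hypoxia, 0 of 16 were 2-fold higher and 0 were 2-fold lower than in normoxia, where 2.59% of 7800 genes were higher and 2.53% lower. After cyclic hypoxia, 2 were higher (2.17% of all genes) and 1 was lower (5.53%). They were Itga9 (1.15) and Cdh13 (1.03), and Lama5 at -1.37. After chronic hypoxia with reoxygenation, 1 member, Lamb2 (1.04), was higher (3.13%) and 0 were lower (1.21%), against normoxia plus 1 h. After cyclic hypoxia with reoxygenation, 0 were higher (3.73%) and 0 lower (10.7%). These 4 genes are dim, with means of 14.0 to 25.4 units. The normoxia arrays differed by 2-fold at 0 of 16 members, against 0.91% of genes higher and 2% lower in the later one, and by 0.82 at Cdh13 and -0.61 at Lamb2.

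The 8 brightest members gave 0 such differences from normoxia in any of the 4 contrasts. The share of the 5127 genes with a mean of 50 or more that were 2-fold higher and lower was 1.5% and 0.605% after chronic hypoxia, 1.37% and 2.17% after cyclic hypoxia, 1.21% and 0.0975% after chronic hypoxia with reoxygenation, and 1.25% and 9.13% after cyclic hypoxia with reoxygenation. Between cyclic and chronic hypoxia 0 of the 8 were 2-fold higher or lower at the end of exposure (0.234% and 1.17% of those genes). One hour later 0 were higher (0.917%) and 1 was lower (11%), which was Itgav. Across the last hour itself, 0 were higher (0.351%) and 0 lower (0.215%) in the chronic regime, 0 were higher (0.449%) and 1, Itgb1, was lower (6.94%) in the cyclic regime, and 0 were higher (0.039%) and 0 lower (0.137%) in normoxia.

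As medians, the members stood at -0.02 after chronic and -0.17 after cyclic hypoxia, and at 0.18 and -0.04 after the last hour, beside medians of 0.00, -0.03, 0.00 and 0.00 over all genes. Chronic and cyclic hypoxia share a normoxia array at each collection. Among the 8 brightest members, 4 were above and 4 below normoxia after chronic hypoxia, and 3 and 5 after cyclic hypoxia. Of the 5127 genes with a mean of 50 or more, 53.8% and 52.1% were above. These shares were 46.3% and 50.5% with reoxygenation, against normoxia plus 1 h. With reoxygenation, all 8 were at or above normoxia plus 1 h after chronic hypoxia (Lamc1 by 0.00), and 7 of 8 were below it after cyclic hypoxia, with Itgb5 as the exception. Quantile normalization gave 7 and 6, and median centring 7 and 5, for these last counts. With the mean of all probe sets in place of the brightest, the 8 genes split into 3 above and 5 below after chronic hypoxia with reoxygenation.

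**Figure D2:**
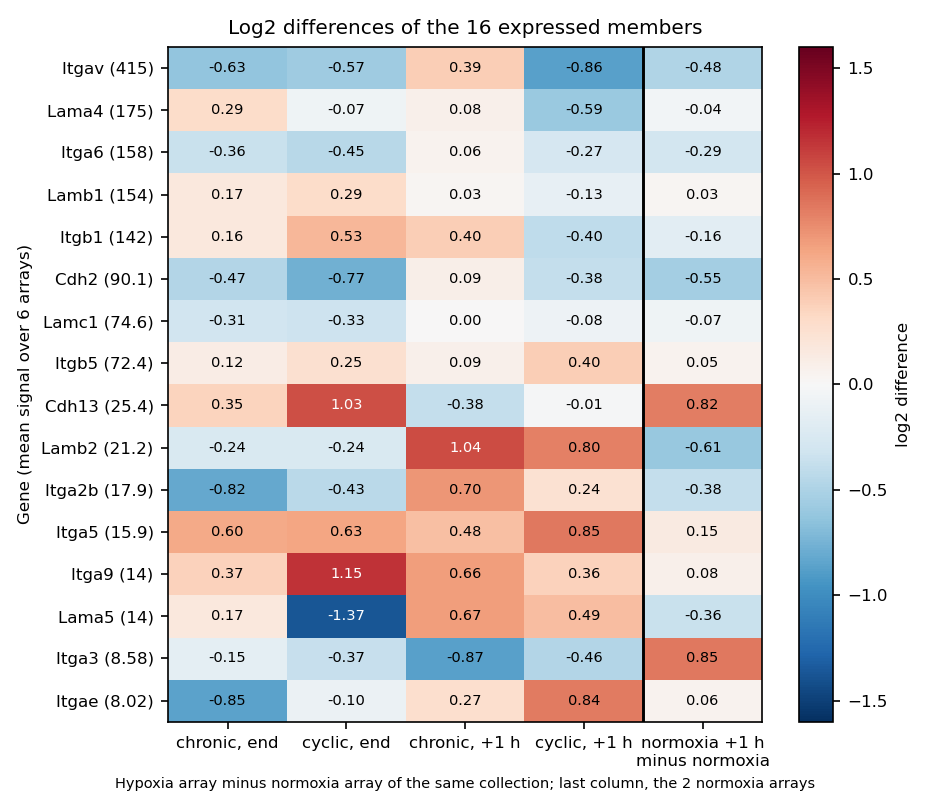
Log2 differences of the 16 expressed members, ordered by mean signal from the top. The first 4 columns set each hypoxia array against the normoxia array of its collection, and the last sets the later normoxia array against the earlier one. Itgav is lower in 3 of 4 hypoxia columns, Itga5 and Itgb5 are higher in 4 of 4, and 2-fold differences are found at the dim genes Cdh13, Lamb2, Itga9 and Lama5.

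In limma's additive fit, in which the collections stand in for replicates, no member passed an adjusted p of 0.05. For mean hypoxia 0 of 16 members were called, against 0.0146% of 13677 probe sets called higher and 0% lower, and 0 members had an unadjusted p under 0.05, beside 4.77% of probe sets higher and 4.13% lower. Against normoxia, chronic hypoxia also gave 0 called members, with 0.0951% of probe sets higher and 0% lower, and 0 members at an unadjusted p under 0.05, beside 3.93% higher and 1.39% lower. Cyclic hypoxia gave 0, with 0% of probe sets called either way. At an unadjusted p under 0.05 there were 2 members lower, beside 9.68% of probe sets, and 0 higher, beside 5.16%. Cyclic against chronic hypoxia gave 0 called members and 0% of probe sets, with 1 member lower at an unadjusted p under 0.05, beside 10.5% of probe sets, and 0 higher, beside 3.93%. With 2 residual degrees of freedom, such a fit leaves moderate changes undecided.

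Itgav, the alpha chain of vitronectin and fibronectin receptors, had the widest range among the bright members. It had 368 and 535 units after chronic hypoxia without and with reoxygenation, 383 and 225 after cyclic hypoxia, and 570 and 409 in the normoxia arrays. The lowest array was that after cyclic hypoxia and reoxygenation, the highest was normoxia, and the hypoxia and normoxia values overlapped. Itgav stood at -0.63 after chronic and -0.57 after cyclic hypoxia, and after reoxygenation at 0.39 and -0.86. The normoxia arrays differed by -0.48. In the fit, cyclic hypoxia against normoxia gave -0.72 (SE 0.296, limma adjusted p = 0.313), chronic hypoxia -0.12 (SE 0.296, adjusted p = 1.00), and mean hypoxia -0.42 (SE 0.256, adjusted p = 0.669). Without the array after cyclic hypoxia, the cyclic value was -1.12 (SE 0.301, limma adjusted p = 0.0433), and 8.19% of all probe sets were then called lower and 1.1% higher, beside this 1 of 16 members. That fit has a single cyclic array, the one with reoxygenation, which is assumed to vary like the other groups. Without the array after cyclic hypoxia and reoxygenation, the value was -0.32 (limma adjusted p = 0.712).

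After the last hour the regimes stood apart at Itgav by -1.25 for cyclic against chronic hypoxia. It was the only member 2-fold apart there, with 0 of 16 higher and 1 lower, beside 2.59% and 12.6% of all genes. At the end of hypoxia the same difference was 0.06. The other probe sets of Itgav were dim, with means of 12.3 and 3.00 units, and the mean over its 3 probe sets turned the later difference to 0.27 and that of chronic hypoxia with reoxygenation against normoxia plus 1 h to -0.55. The array after cyclic hypoxia and reoxygenation also stood furthest from the others across all genes, with a mean correlation of 0.953 where the others had 0.964 to 0.969, and its part in these values was not tested.

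Itgb1, the common beta chain, had 151 and 159 units after chronic hypoxia without and with reoxygenation, 196 and 91.4 after cyclic hypoxia, and 135 and 121 in normoxia. Both the highest and the lowest of its values came from the cyclic regime, where the last hour made a difference of -1.10. A second probe set of similar brightness gave 159 and 157 units after chronic hypoxia, 143 and 86.3 after cyclic hypoxia, and 142 and 145 in normoxia. The low value after cyclic hypoxia and reoxygenation was thus found by both probe sets, and the high value after cyclic hypoxia by only 1. In the fit Itgb1 stood at 0.17 for mean hypoxia (SE 0.260, limma adjusted p = 0.879).

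Itgb5, which pairs with Itgav in a vitronectin receptor, varied least among the integrins. It had 69.4 and 70.5 units after chronic hypoxia without and with reoxygenation, 76.5 and 87.4 after cyclic hypoxia, and 64.1 and 66.4 in normoxia. All 4 hypoxia arrays lay above both normoxia arrays, by 0.09 to 0.40 against their own controls. Another probe set of the same mean (72.1) gave 74.7 and 61.2 units after chronic hypoxia, 79.8 and 83.7 after cyclic hypoxia, and 69.4 and 63.6 in normoxia, so there the groups overlapped. The other 2 probe sets, with means of 52.0 and 34.2 units, were lower after chronic hypoxia with reoxygenation than in normoxia plus 1 h, by -0.33 and -0.32. The fit gave 0.21 for mean hypoxia (SE 0.197, limma adjusted p = 0.785).

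Itga6, the laminin-binding partner of Itgb1, had 152 and 166 units after chronic hypoxia without and with reoxygenation, 143 and 132 after cyclic hypoxia, and 195 and 159 in normoxia. Cyclic hypoxia gave the 2 lowest of the values. The log2 differences were -0.36 and 0.06 for chronic and -0.45 and -0.27 for cyclic hypoxia, beside -0.29 between the normoxia arrays. Its second probe set, with a mean of 54.1 units, was also lowest after cyclic hypoxia and reoxygenation, at 23.4, but its 52.1 units in normoxia were below the 60.4 after cyclic hypoxia. The fit gave -0.36 for cyclic hypoxia against normoxia (SE 0.216, limma adjusted p = 0.480).

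Itga5, the fibronectin receptor chain, was dim and stood above normoxia throughout. It had 16.6 and 16.9 units after chronic hypoxia without and with reoxygenation, 17.0 and 21.9 after cyclic hypoxia, and 11.0 and 12.1 in normoxia. The 4 hypoxia values did not overlap the 2 normoxia values, and the differences were 0.60, 0.48, 0.63 and 0.85 in this order. The brightest probe sets of Itgb5, Itga9, Bcar1, Zyx, Vwf, Dct and Tyrp1, among others, separated in the same way. Such a separation is therefore not particular to Itga5 or to the members. The share of all genes that do so was not counted. The mean-hypoxia value of Itga5 was 0.64 (SE 0.342, limma adjusted p = 0.635). Its other probe set had a mean of 4.90 units, under 8 in 5 of 6 arrays, and turned the difference after cyclic hypoxia to -0.02 when averaged in. The brighter probe set has the suffix that the manufacturer gives to sets shared by several transcripts.

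Itga9, a partner of Itgb1 that binds tenascin and osteopontin, had 12.6 and 16.4 units after chronic hypoxia without and with reoxygenation, 21.7 and 13.3 after cyclic hypoxia, and 9.76 and 10.3 in normoxia. Each hypoxia array lay above both normoxia arrays at this probe set. The second Itga9 probe set (mean 11.4) did not repeat the high value after cyclic hypoxia. It gave 9.79 and 9.35 units in the cyclic arrays and 10.2 and 8.32 in normoxia, so there the groups overlapped. Itga3 had its highest signal, 13.7, in normoxia plus 1 h, and 5.88 to 9.92 units in the hypoxia arrays. Over the last hour of chronic hypoxia Itga2b stood at 1.14 and Itgae at 1.18, the 2 members that were 2-fold higher there, where 2.4% of genes were higher, and 0 members were lower (1.5%).

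**Figure D3:**
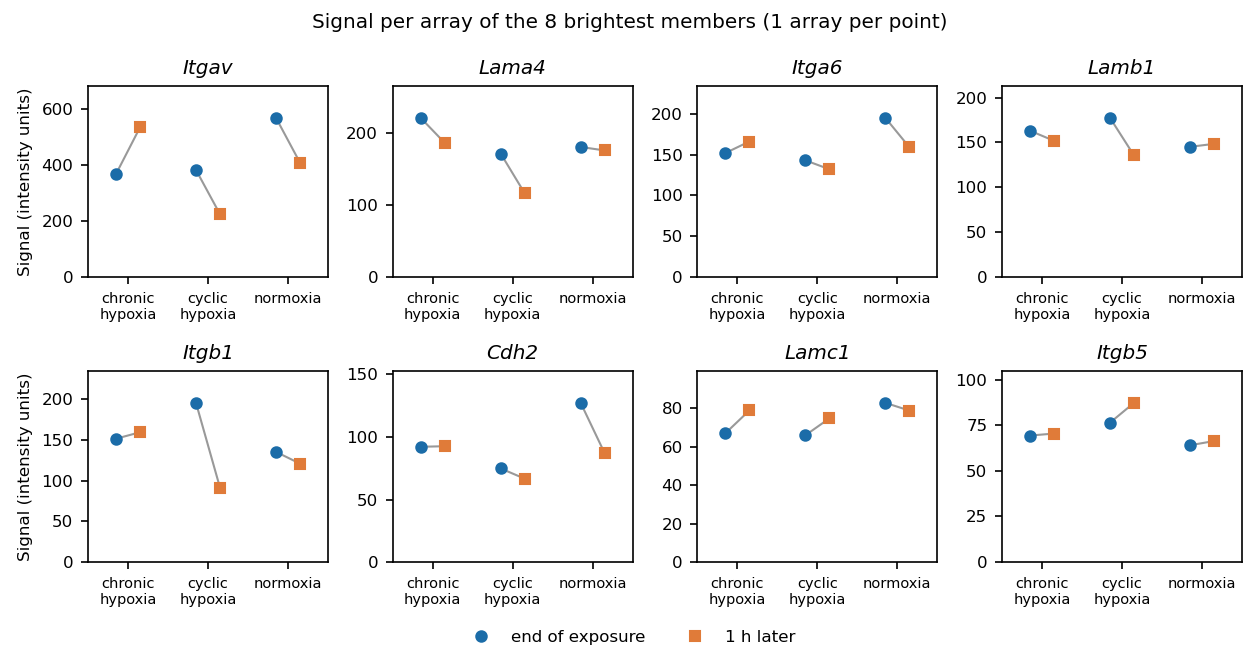
Signal of the 8 brightest members in intensity units on linear axes from 0, with 1 array per point. Circles are the end of the exposure and squares 1 h later, for chronic hypoxia, cyclic hypoxia and normoxia. Itgav, Lama4, Itgb1 and Lamb1 are lower 1 h after cyclic hypoxia than at its end, and 6 of the 8 genes have their lowest signal in that array.

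Cdh2, the classical cadherin with signal, had 92.2 and 92.6 units after chronic hypoxia without and with reoxygenation, 74.8 and 66.7 after cyclic hypoxia, and 127 and 87.0 in normoxia. Normoxia was highest and both cyclic arrays were lowest, while the chronic arrays lay between the normoxia arrays. Against their controls the cyclic arrays stood at -0.77 and -0.38, and the normoxia arrays differed by -0.55. The fit gave -0.58 for cyclic hypoxia (SE 0.240, limma adjusted p = 0.320). At a second probe set, with a mean of 43.6 units, cyclic hypoxia gave 47.3 units and 43.5 with reoxygenation. Normoxia gave 51.4 units there and normoxia plus 1 h gave 35.4. The differences were thus -0.12 and 0.30, and the lowest arrays were normoxia plus 1 h and chronic hypoxia (37.3 units). Cdh13 (T-cadherin, which is anchored by lipid and has no catenin-binding tail) had 21.2 and 22.5 units after chronic hypoxia, 33.9 and 29.0 after cyclic hypoxia, and 16.6 and 29.2 in normoxia. Its normoxia arrays span most of its range.

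Lamb1 and Lamc1, the beta and gamma chains of many laminins, moved little at their brightest probe sets. Lamb1 had 163 and 152 units after chronic hypoxia without and with reoxygenation, 177 and 136 after cyclic hypoxia, and 145 and 148 in normoxia. Lamc1 had 66.9 and 78.8 units after chronic hypoxia, 65.8 and 74.7 after cyclic hypoxia, and 82.7 and 78.7 in normoxia. Both chains kept within 0.33 of their controls in all 4 contrasts, and the fit gave 0.09 for Lamb1 (SE 0.188, limma adjusted p = 0.919) and -0.18 for Lamc1 (SE 0.200, adjusted p = 0.834) in mean hypoxia. The other Lamb1 probe sets, with means of 31.0 and 12.4 units, differed from the first and from each other, at -1.05 and 2.26 after cyclic hypoxia. The second Lamc1 probe set, with a mean of 3.96 units, stood at 1.96 after cyclic hypoxia and at 1.77 with reoxygenation. Averaged with it, Lamc1 stood at 0.81 and 0.85 in these contrasts.

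Lama4, an alpha chain known from vessel and muscle basement membranes, had 221 and 186 units after chronic hypoxia without and with reoxygenation, 171 and 116 after cyclic hypoxia, and 180 and 176 in normoxia. Its chronic arrays lay above all others and its cyclic arrays below. Cyclic against chronic hypoxia gave -0.52 in the fit (SE 0.220, limma adjusted p = 0.341), the single member with an unadjusted p under 0.05 (0.0448) in that contrast. Its second probe set had a mean of 4.51 units and lay below its controls in all 4 contrasts. Averaged with it, Lama4 stood at -0.44 and -0.34 after chronic hypoxia without and with reoxygenation.

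Lama5 had 16.7 and 18.5 units after chronic hypoxia without and with reoxygenation, 5.76 and 16.3 after cyclic hypoxia, and 14.9 and 11.6 in normoxia. One array, that after cyclic hypoxia, was low. It made the only 2-fold difference between cyclic and chronic hypoxia at the end of exposure (-1.54), with 0 of 16 members higher and 1 lower, beside 1.37% and 3.81% of genes. In the hour after cyclic hypoxia Lama5 was the 1 member that was 2-fold higher (1.50, beside 2.95% of genes) and Itgb1 the 1 that was lower (beside 7.5%). The second Lama5 probe set (mean 11.5) had its highest value, 18.3 units, in the array where the first was low, and the mean of both turned the difference after cyclic hypoxia to 0.54. Lamb2 had 18.4 and 29.3 units after chronic hypoxia, 18.4 and 24.9 after cyclic hypoxia, and 21.7 and 14.2 in normoxia. Its higher values against normoxia plus 1 h rest in part on the low signal of that array.

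Of 26 listed adhesion plaque and linker genes, 22 were named on the array, and all 22 were expressed. Tln2, Fermt1, Ptk2 and Tns3 were not named there. Besides genes that join integrins to the cytoskeleton, the list holds those of the membrane proteins Cd151, Cd9, Cd81 and Cd47. None of the 22 was called in the additive fit. Bcar1 (p130Cas, a scaffold of focal adhesions) had 158 and 172 units after chronic hypoxia without and with reoxygenation, 167 and 170 after cyclic hypoxia, and 75.3 and 86.1 in normoxia. Its hypoxia values did not overlap its normoxia values, as at Itga5, Zyx, Dct and other genes, and the share of all genes that do so was not counted. Mean hypoxia gave 1.05 for Bcar1 (SE 0.182, limma adjusted p = 0.155). Zyx (zyxin, a focal adhesion and stress fibre protein) had 205 and 165 units after chronic hypoxia, 228 and 275 after cyclic hypoxia, and 113 and 113 in normoxia, with 0.93 for mean hypoxia (SE 0.195, limma adjusted p = 0.265). These were the 2 genes of the list that were 2-fold higher in at least 2 hypoxia arrays, as were 2.82% of 7800 genes, and 0 of the list were 2-fold lower in at least 2, as were 2.94%. Lims1, Parvb and Tns1 were 2-fold lower in 1 array each and are named after their values were seen. Lims1, a partner of integrin-linked kinase, stood at -1.72 after cyclic hypoxia with reoxygenation, where 10.7% of all genes were 2-fold lower. Parvb (parvin beta, mean 9.94 units) stood at -2.73 and Tns1 (tensin, mean 10.09) at -1.58 after cyclic hypoxia, where 5.53% were. Tns1 was also 2-fold higher, at 1.50, after chronic hypoxia with reoxygenation. The normoxia arrays differed by -1.32 at Tns1 and by -0.74 at Parvb. Tln1 (talin), which activates integrins, kept within 0.19 of its controls, and Vcl (vinculin), which reinforces the link to actin, within 0.27.

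Among 11 expressed cadherin partners, 0 were 2-fold higher or lower in any of the 4 hypoxia arrays, and 0 were called. Ctnnb1 (beta-catenin) stood between -0.10 and 0.29, Ctnna1 (alpha-catenin) between -0.09 and 0.22, and Ctnnd1 (p120-catenin) between -0.63 and 0.63. Of 21 matrix ligands and laminin receptors on the array 11 were expressed and 0 called. After cyclic hypoxia 2 of the 11 were 2-fold lower, beside 5.53% of all genes. They were Hspg2 (-1.20) and Nid2 (-1.79, mean 8.38 units), named after their values were seen. None of the 11 was 2-fold different from normoxia in the other hypoxia arrays. Fn1 (fibronectin) stood at -0.50 and -0.19 at the end of chronic and cyclic hypoxia and at 0.65 and 0.60 after the last hour, where the normoxia arrays differed by -0.42. Thbs1 (thrombospondin, mean 5.64) was not expressed. Of 7 regulators and markers of the epithelial to mesenchymal transition 2 were expressed, Vim and Zeb2, and Snai2 (mean 7.35) was under the limit. Neither Vim nor Zeb2 was called, and Zeb2 stood at -1.53 after cyclic hypoxia with reoxygenation.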

How the data were processed

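The data are signal intensities of 22690 probe sets on 6 Affymetrix arrays, 1 per group, for which the labels state 5 µg of total RNA. Per the submitters' processing notes the submitters used GCOS, whose version and algorithm are not given in the sources used here. The authors deposited these intensity values on a linear scale, and each column had a mean of 100 after trimming 2% at each end, so they were used as deposited. No detection calls or counts were used, and the number of arrays limits the precision.

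Values under the 20th percentile (2.09 units) were set to it before log2. The 64 control probe sets and probe sets with a mean signal under 8 were left out, which kept 13677. Of 20393 probe sets naming 1 gene, 20364 were given a current symbol by Entrez identifier (691 named several and 1606 none). Limma 3.58.1 in R 4.3.3 fitted regime and collection to all 6 arrays with an intensity trend (two-sided, Benjamini-Hochberg over all 13677), leaving 2 residual degrees of freedom. It was tested on simulated data. Contrasts of single arrays have no test.

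The members, the lists and the threshold of 8 were chosen with earlier results of these data known. Signals in all arrays are given for 12 fixed members, the 8 brightest, and members past 2-fold in repeated contrasts, and other genes by their values in these contrasts. Itga9, Cdh13, Lamb2, Itga2b, Itga3 and Itgae were described after their values were seen. Symbols with a letter after the number, such as Itga2b, were taken as members. Alternatives were other scalings, filters, treatments of low values and probe set rules, no trend, and leaving out each array.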

Additional observations from a re-analysis of the deposited data

Results flagged for a closer look

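Lama4 was the 1 of 10 named expressed members whose chronic arrays both lay above their controls (0.29 without and 0.08 with reoxygenation) while both cyclic arrays lay below theirs (-0.07 and -0.59). Averaged over the collections, cyclic minus chronic hypoxia was -0.52. With the mean of both Lama4 probe sets, the second of which is dim, the chronic differences were -0.44 and -0.34, so the opposite signs were lost. Whether the regimes differ was tested only by the additive fit, where limma gave an adjusted p of 0.341. Of 7800 genes, 9.22% had their regimes on opposite sides of normoxia in this way.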

How the results depend on the processing

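No paired analysis was possible because the labels give no replicate numbers, and the collection already is a term of the limma fit. The 49 members without the filter, most of them near background, gave counts of 2-fold higher and lower members of 6 and 4 after chronic hypoxia, 6 and 7 after cyclic hypoxia, 5 and 3 after chronic and 7 and 4 after cyclic hypoxia with reoxygenation, 4 and 8 for cyclic against chronic at the end and 7 and 7 after the last hour, 7 and 5 over the last hour of chronic, 11 and 5 of cyclic hypoxia, and 5 and 4 of normoxia. Over all 12393 unfiltered genes the share that was 2-fold higher ranged over these contrasts from 4.23% to 11.0%, and the share lower from 4.95% to 12.9%. The medians that moved by over 0.1 without the filter were 0 (cyclic hypoxia), 0.033 (chronic with reoxygenation), 0 (cyclic against chronic, last hour) and 0.0069 (last hour of chronic). With the limit at 50 units, the counts became 0 where they had been 1 or 2 for cyclic hypoxia, chronic hypoxia with reoxygenation, cyclic against chronic at the end, and the last hour (higher), and the medians were -0.33 for cyclic hypoxia with reoxygenation, -0.40 for cyclic against chronic after the last hour and -0.28 for the last hour of cyclic hypoxia. With log2(value + 16) the same counts and both of the last hour of cyclic hypoxia were 0. With quantile normalization, chronic hypoxia with reoxygenation had 0 higher and 1 lower, the last hour of cyclic hypoxia had 0 lower and a median of 0.17, and the medians were 0.13 for cyclic hypoxia with reoxygenation and -0.0086 for cyclic against chronic after it. With median centring, which moved the median of all genes by about 0.19 in contrasts of that array, these were 2 higher (median 0.14) for cyclic hypoxia with reoxygenation, a median of -0.013 for cyclic against chronic, and 2 higher, 0 lower and a median of 0.21 over the last hour of cyclic hypoxia. With the mean of all probe sets, there was 1 higher after chronic hypoxia, 0 higher and 0 lower after cyclic hypoxia (median -0.041), 2 higher after chronic hypoxia with reoxygenation, a median of 0.34 after cyclic hypoxia with reoxygenation, 0 lower for cyclic against chronic at the end, 1 higher, 0 lower and a median of 0.17 after the last hour, and 0 lower over the last hour of cyclic hypoxia. This choice also turned Itgav to 0.27, in place of -1.25, for cyclic against chronic hypoxia after the last hour, and Lama5 to 0.54, in place of -1.37, after cyclic hypoxia. Dim second probe sets enter those means. The limma counts of called members were 0 in every alternative but 1. Leaving out each array gave 0 to 1 for cyclic hypoxia, where Itgav was called without the array after cyclic hypoxia, as were 1120 probe sets lower and 150 higher, and 0 to 0 elsewhere. Of the values of named members under the alternatives, 214 moved by less than 0.396, the SD of all genes between the normoxia arrays, 24 moved by more, and 2 are the 2-fold differences turned above. Counting small differences too, 32 of 240 values changed sign, 20 of them with the mean of all probe sets, 7 with median centring, 5 with quantile normalization and 0 with log2(value + 16). Precision is limited by 1 array per group and, under about 50 units, by signal over background.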

Other observations

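Over the last hour of the chronic regime 14 of 16 expressed members had a higher signal than at the end of hypoxia, as did 48.2% of 7800 genes. The median was 0.13 beside -0.01 over all genes. Lama4 (-0.25) and Lamb1 (-0.10) were lower. The 7 expressed integrin alpha genes were all above 0 there, by a median of 0.37. With the mean of all probe sets 5 of the 7 were above 0 and the median was 0.22, and of the 8 brightest members 3 were above and 5 below. In the hour after cyclic hypoxia the members split into 8 and 8, and over the last hour of normoxia into 7 higher and 9 lower. Of all genes, 51.4% and 51.3% were higher in these.

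Of the 8 brightest members, 6 had their lowest signal after cyclic hypoxia with reoxygenation, beside 29.5% of 5127 genes that average 50 units or more. With median centring the count was 3, with quantile normalization 4, and with the mean of all probe sets 4.

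Within the melanocyte list Mitf, the lineage's regulator, had 635 units after cyclic hypoxia with reoxygenation, against 2568 in normoxia plus 1 h, and 1256 after cyclic hypoxia, against 2366 in normoxia. Tyr, a pigment enzyme gene, had 2312 and 2628 units in those cyclic arrays, against 2223 and 1981 in the same controls. Mitf was therefore low in the array in which Itgav, Itgb1 and Lama4 were also lowest. A link between them was not tested.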
